A study of Homo sapiens with 15 samples.

Results

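SERPINB1, SERPINB2, SERPINB3, SERPINB4, SERPINB5, SERPINB6, SERPINB7, SERPINB8 and SERPINB13 are clade B serpins, and they were chosen as the clade B serpins known from squamous epithelium. They were found by gene symbol, and all 9 were among the 60649 genes listed for each library. The tables list 15 genes whose symbol starts with SERPINB, so 6 further clade B genes were not among the 9 members. The study asked how the transcriptome of a squamous cell carcinoma line depends on PRMT5, an arginine methyltransferase, and on WDR77, its partner protein in the methylosome complex. The line was HSC-5, from a human cutaneous squamous cell carcinoma, and RNA was sequenced in 15 libraries, 3 biological replicates of each of 5 conditions. In sgNeg the genotype is given as WT, in sgPRMT5-1 and sgPRMT5-2 as PRMT5 Knockout, and in sgWDR77-1 and sgWDR77-2 as WDR77 Knockout. For all 15 libraries the labels name Neomycin as the treatment, and no clone is named. The sgRNAs were delivered by lentivirus to cells that express Cas9. The pooled groups PRMT5KO and WDR77KO hold 6 libraries each, 3 from each sgRNA.

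Serpins trap a protease with an exposed loop that the protease cuts, after which both proteins are held in a stable complex. Clade B members lack a classical secretion signal and act mostly inside cells, against serine proteases and, for some members, against cysteine cathepsins. Stratified squamous epithelium makes many of them, and SERPINB3 and SERPINB4 are known as the squamous cell carcinoma antigens.

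The genes lie in 2 clusters in the human genome (GENCODE v44 gene models, GRCh38). On the plus strand of chromosome 18 are SERPINB5 (ENSG00000206075.14, chr18:63476958-63505085), SERPINB13 (ENSG00000197641.12, chr18:63586989-63604639), SERPINB7 (ENSG00000166396.13, chr18:63752935-63805376), SERPINB2 (ENSG00000197632.9, chr18:63871692-63903888) and SERPINB8 (ENSG00000166401.15, chr18:63970029-64019779). On the minus strand of the same cluster are SERPINB4 (ENSG00000206073.11, chr18:63637259-63644256) and SERPINB3 (ENSG00000057149.16, chr18:63655197-63661893). On the minus strand of chromosome 6 are SERPINB1 (ENSG00000021355.13, chr6:2832332-2841959) and SERPINB6 (ENSG00000124570.21, chr6:2948159-2972165). The representative transcripts have 7 or 8 exons each and are 1315 bases long for SERPINB6 up to 3321 bases long for SERPINB8. Exons of SERPINB11 on the other strand overlap 36.3% of the exon bases of SERPINB3, and an unnamed gene on the same strand overlaps 28.7% of those of SERPINB2. Of the SERPINB8 exon bases, 11.1% are shared with HMSD on the same strand. SERPINB11 had 0 counts in all 15 libraries. Whether the authors counted reads by strand is not given in the sources used here.

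Each library held between 5146711 and 6730428 reads counted to genes. The medians by condition were 5806938 for sgNeg, 5974844 for sgPRMT5-1, 6124306 for sgPRMT5-2, 5203698 for sgWDR77-1 and 5527881 for sgWDR77-2. Levels are given as CPM, counts scaled to library size. Reads outside genes made up 7.16% in sgNeg replicate 2, beside 2.84% and 3.56% in sgNeg replicates 1 and 3. They made up 6.04% and 5.70% in sgWDR77-1 replicates 2 and 3, beside 3.57% in replicate 1. The pairs of sgWDR77-1 replicate 1 with the others were also further apart (chi-square per degree of freedom 12.5 and 17.7) than replicates 2 and 3 (3.21). By the same measure sgNeg replicate 2 was further from replicates 1 and 3 (9.16 and 6.44) than these were from each other (3.86). The part of these differences in the serpin values was not tested, and results that turn on a library are given without it. The paper's methods name a kit that does not mark strand, while the sample labels name a stranded mRNA kit. All 10 squamous keratinocyte markers examined were detected in every library, with KRT17 the most abundant at a mean of 928 CPM and KRT14 the lowest at 0.440 CPM. Their summed level was 3751 CPM in sgNeg, 3643 CPM in sgPRMT5-1, 3156 CPM in sgPRMT5-2, 3312 CPM in sgWDR77-1 and 3994 CPM in sgWDR77-2. TP63, which encodes the squamous lineage factor p63, had a mean of 374 CPM.

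The sum covers markers that differed strongly. KRT5, a basal keratin, ranged from 33.8 to 817 CPM over the 15 libraries and KRT6A, a keratin of activated keratinocytes, from 0.777 to 30.8 CPM. By limma voom (Benjamini-Hochberg), of the 9 squamous markers tested 1 was significantly upregulated and 3 were significantly downregulated in PRMT5KO. Among all genes tested 8.73% and 8.3% were. In WDR77KO the counts were 0 and 3, beside 0.838% and 2.55% of all genes tested. The lower 3 in each were KRT5, KRT6A and DSG3, with log2 fold changes of -2.41, -2.66 and -0.70 in PRMT5KO and -3.42, -2.92 and -0.82 in WDR77KO, each in 6 of 6 libraries. The higher one was SFN at 0.40, also in 6 of 6 libraries. These genes were named after their values were seen. With each library left out the count stayed between 4 and 5 in PRMT5KO and at 3 in WDR77KO.

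Summed by cell type, markers of other cell types were low beside the squamous markers. The endothelial marker CDH5 still had a higher mean than SERPINB13 (16.96 CPM). Of 6 fibroblast markers, COL1A2 was at 0 in all 15 libraries, COL1A1 was the most abundant, and the sums were 13.4, 10.4, 8.33, 12.4 and 11.03 CPM for sgNeg, for PRMT5 sgRNAs 1 and 2 and for WDR77 sgRNAs 1 and 2. Of 4 melanocyte markers, DCT and TYR were at 0, PMEL was the most abundant, and the sums in the same order were 5.57, 3.36, 3.56, 5.76 and 4.65 CPM. Of 5 leukocyte markers, CD3E and TYROBP were at 0, CD14 was the most abundant, and the sums were 0.787, 1.52, 1.11, 0.857 and 0.682 CPM. Of 3 endothelial markers, CDH5 was the most abundant at a mean of 20.02 CPM while PECAM1 had a mean of 0.116 CPM, and the sums were 21.4, 17.9, 16.6, 33.9 and 19.5 CPM. In PRMT5KO limma voom (Benjamini-Hochberg) called 1 of 2 tested melanocyte and 1 of 2 tested endothelial markers lower, beside 17% of all genes called. With sgPRMT5-2 it called 1 of 1 fibroblast, 1 of 2 melanocyte and 1 of 2 endothelial markers lower, beside 40.1% of all genes. With sgWDR77-1, 1 of 2 tested endothelial markers was called higher, and in WDR77KO none of these markers was called. The part of these markers in the serpin values was not tested.

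The targeted genes were examined first. PRMT5 mRNA had a mean of 58.9 ± 9.10 CPM in sgNeg (SD, n = 3), 36.8 CPM with sgPRMT5-1 and 42.7 CPM with sgPRMT5-2. It was significantly downregulated in PRMT5KO in 6 of 6 libraries, with a log2 fold change of -0.57 (SE 0.119, limma voom, Benjamini-Hochberg adjusted p = 0.00874). WDR77 mRNA had a mean of 119 ± 5.70 CPM in sgNeg (SD, n = 3), 45.4 CPM with sgWDR77-1 and 24.5 CPM with sgWDR77-2. It was significantly downregulated in WDR77KO in 6 of 6 libraries, with a log2 fold change of -1.86 (SE 0.216, limma voom, Benjamini-Hochberg adjusted p = 9.00e-05). The labels and the targeted mRNAs thus go the same way in the knockout libraries.

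Compared per kb of transcript, SERPINB1 was the most abundant member in sgNeg at 109 ± 13.3 CPM per kb (SD, n = 3), and SERPINB6 followed at 82.9 ± 5.15. SERPINB5 was at 20.8 ± 1.78 and SERPINB13 at 9.51 ± 1.36 CPM per kb. These 4 did not overlap with each other between sgNeg libraries. SERPINB7 at 1.80, SERPINB4 at 1.37, SERPINB8 at 0.926 and SERPINB3 at 0.702 CPM per kb formed a lower group whose neighbours overlapped in their spread, and SERPINB2 was lowest at 0.0952.

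The order of the levels was not the same in every condition. With sgPRMT5-2, SERPINB6 at 66.9 ± 1.85 CPM per kb was above SERPINB1 at 48.9 ± 2.98, and SERPINB7 at 4.76 ± 0.404 and SERPINB8 at 2.59 ± 0.430 were above SERPINB13 at 1.37 ± 0.141 (SD, n = 3). SERPINB6 was also above SERPINB1 with sgWDR77-1, at 76.02 against 66.8 CPM per kb, and with sgWDR77-2, at 76.4 against 62.3 CPM per kb, without overlap between libraries. With sgPRMT5-1, SERPINB1 at 85.1 ± 14.3 and SERPINB6 at 72.3 ± 2.33 CPM per kb overlapped. In these 3 other conditions SERPINB13 stayed above SERPINB7, with means of 6.08 against 2.69 CPM per kb for sgPRMT5-1, 4.83 against 2.13 for sgWDR77-1 and 5.30 against 2.13 for sgWDR77-2. A whole culture was measured, so fewer cells with a transcript and less of it per cell cannot be told apart.

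**Figure D1:**
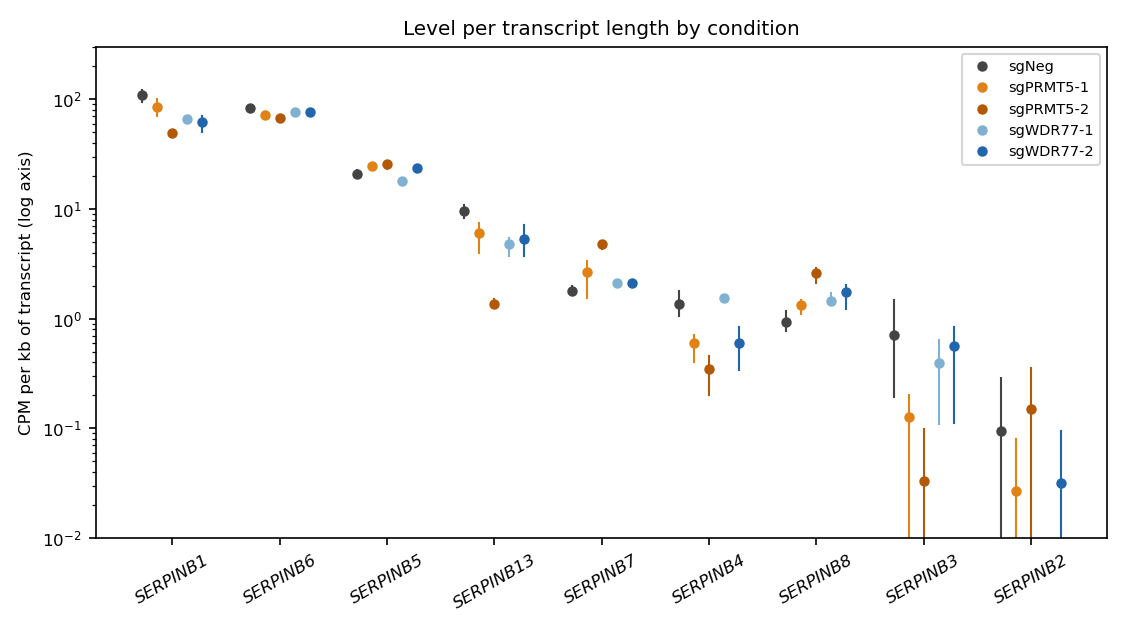
Mean CPM per kb of transcript (log axis) of the 9 members by condition, with lines from the lowest to the highest of 3 libraries; lines that reach the bottom of the axis go down to 0. SERPINB1 leads in sgNeg at 109 CPM per kb and SERPINB6 with sgPRMT5-2 at 66.9, while SERPINB2 stays under 1 in all 5 conditions.

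In PRMT5KO, 4 members were significantly downregulated, namely SERPINB1, SERPINB4, SERPINB6 and SERPINB13, and none was significantly upregulated. A gene was called at a limma voom adjusted p-value (Benjamini-Hochberg) under 0.05. SERPINB2 and SERPINB3 did not reach the minimum mean of 3 normalized counts, so 7 of 9 members were tested. Among all 14071 genes tested 17% were called, 8.73% as upregulated and 8.3% as downregulated. The median log2 fold change was -0.26 over the 7 tested members and -0.01 over all genes tested. The calls depended on the control libraries. Without sgNeg replicate 1, limma voom called 0 of the 7 members, and 483 genes in place of 2397. Without sgNeg replicate 2 none of the 4 was called, and the 1 member called was SERPINB3 (adjusted p = 0.0332), with 673 genes called. SERPINB3 also entered the test and passed with all libraries kept under library totals alone (0.0317), no filter (0.0260) and all 15 libraries in one fit (0.0180), and it did not pass without sgPRMT5-2 replicate 1 (0.0747) or 2 (0.0728). Without sgNeg replicate 3 or 1 of the 3 sgPRMT5-2 libraries, between 1297 and 1395 genes were called, and without sgPRMT5-1 replicate 1 the number of members called was 8.

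In WDR77KO, 2 members were significantly downregulated, SERPINB1 and SERPINB13, and none was significantly upregulated. Here 8 of 9 members were tested, all but SERPINB2. Among all 14073 genes tested 3.39% were called, 0.838% as upregulated and 2.55% as downregulated. The median log2 fold change was -0.24 over the 8 tested members and 0.00 over all genes tested. Without sgNeg replicate 2 only SERPINB1 was called, and without sgNeg replicate 1, 2 or 3 the number of genes called was 213, 259 or 199 in place of 477. PRMT5KO and WDR77KO share the 3 sgNeg libraries, so these counts are not independent of each other.

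**Figure D2:**
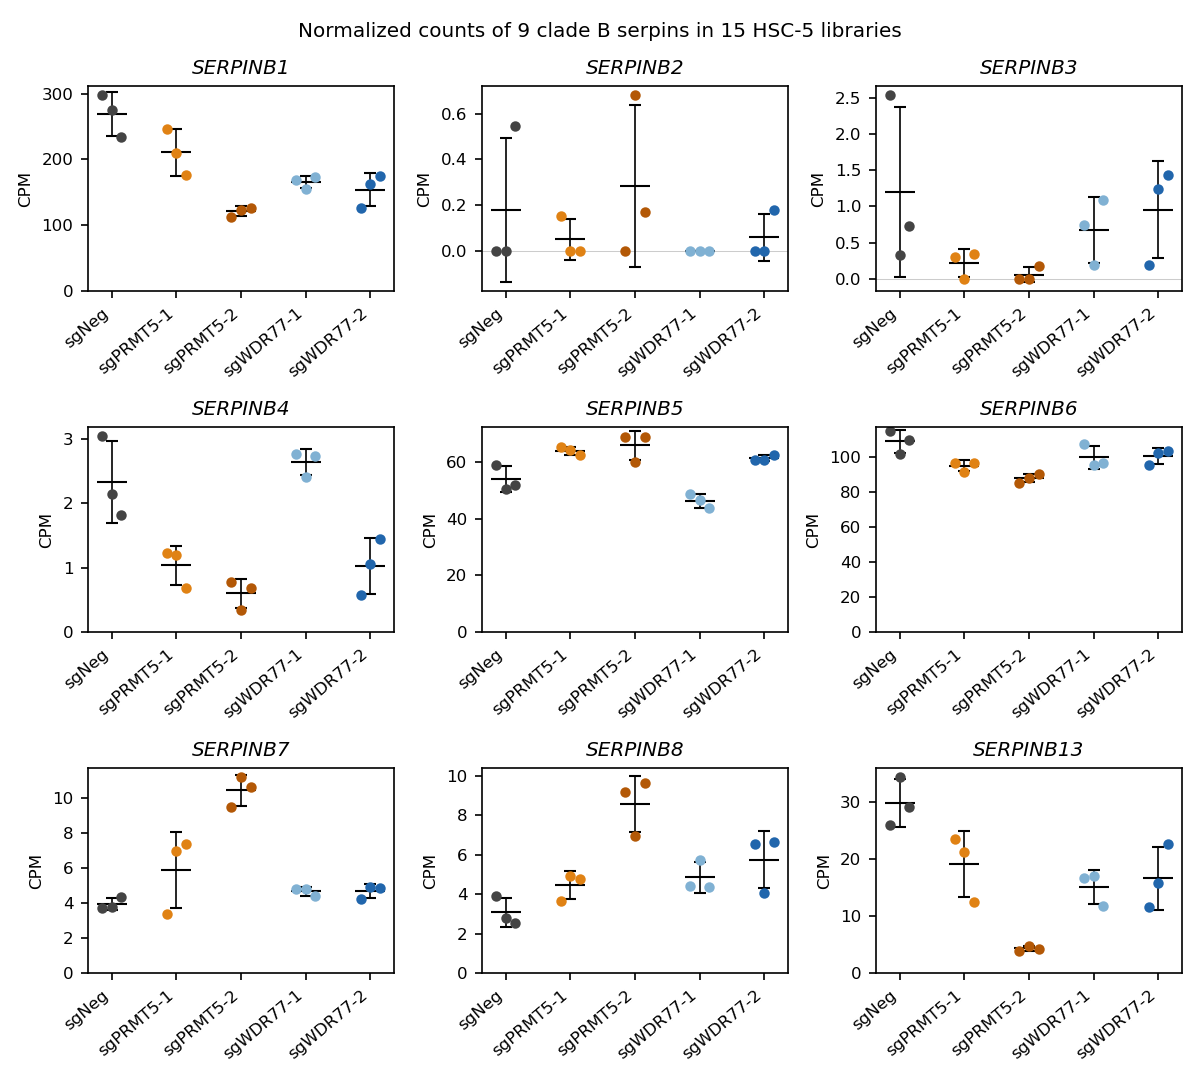
CPM of each member in the 15 libraries, 1 panel a gene with its own axis from 0; points are replicates 1 to 3 from left to right, and the black line and bars are the mean and 1 SD (n = 3). SERPINB1 and SERPINB13 lie lower in the knockout conditions than in sgNeg, with the single exception of SERPINB1 with sgPRMT5-1, where 1 library at 247 CPM lies above the lowest sgNeg library at 234, and SERPINB7 and SERPINB8 lie highest with sgPRMT5-2.

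Among the members that act on serine proteases, SERPINB1, an inhibitor of neutrophil elastase, cathepsin G and proteinase 3, was the most abundant. It had 299, 275 and 234 CPM in sgNeg replicates 1, 2 and 3. The sgPRMT5-1 libraries had 247, 209 and 176 CPM, and the sgPRMT5-2 libraries had 113, 124 and 127 CPM. The sgPRMT5-2 libraries were all far below sgNeg, and the highest sgPRMT5-1 value overlapped with sgNeg. With sgWDR77-1 SERPINB1 had 168, 155 and 173 CPM, and with sgWDR77-2 it had 126, 162 and 175 CPM, all 6 below the lowest sgNeg library. The promoter is shown because SERPINB1, the most abundant member, was lower in both pooled knockouts. It is the 250 bases before the start (RefSeq, GRCh38.p14, chr6:2841864-2842113, minus strand), with GC box matches in capitals.
SERPINB1: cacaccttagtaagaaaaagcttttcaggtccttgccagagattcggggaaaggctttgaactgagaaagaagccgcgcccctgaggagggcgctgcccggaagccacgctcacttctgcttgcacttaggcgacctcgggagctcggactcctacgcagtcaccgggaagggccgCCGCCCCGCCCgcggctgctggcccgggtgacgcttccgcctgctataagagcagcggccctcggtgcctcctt

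SERPINB1 was significantly downregulated in PRMT5KO with a log2 fold change of -0.77 (SE 0.200, limma voom, Benjamini-Hochberg adjusted p = 0.0215), with 5 of 6 libraries below every sgNeg library. That adjusted p was 0.101 without sgNeg replicate 1 and 0.0861 without sgNeg replicate 2, within a range of 3.55e-05 to 0.101 over all settings. In WDR77KO the log2 fold change was -0.75 (SE 0.118, limma voom, Benjamini-Hochberg adjusted p = 0.00140) with 6 of 6 libraries below sgNeg, and the call held whichever library was left out. By sgRNA, it was -1.16 (SE 0.0861) with sgPRMT5-2, -0.67 (SE 0.123) with sgWDR77-1 and -0.82 (SE 0.121) with sgWDR77-2, in 3 of 3 libraries each, with limma voom Benjamini-Hochberg adjusted p of 3.55e-09, 0.0142 and 0.00108. The sgWDR77-1 call was lost without sgNeg replicate 1 (adjusted p = 0.0967), sgNeg replicate 2 (0.0734) or sgWDR77-1 replicate 2 (0.0745), within a range of 0.000894 to 0.0967. With sgPRMT5-1 the log2 fold change was -0.37 and did not pass (limma voom, Benjamini-Hochberg adjusted p = 0.0637). It passed without sgNeg replicate 3 (0.0193) or sgPRMT5-1 replicate 1 (0.0309), with library totals alone (0.0451) and with no filter (0.00102). It also passed with a block for replicate number (0.000694), within a range of 0.000694 to 0.237 over all settings.

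SERPINB6, which inhibits trypsin-like and chymotrypsin-like proteases, differed less. It had 115, 102 and 110.1 CPM in sgNeg, 96.9, 91.5 and 96.7 CPM with sgPRMT5-1, and 85.5, 88.1 and 90.4 CPM with sgPRMT5-2. All 6 PRMT5KO libraries were thus below the 3 sgNeg libraries. With sgWDR77-1 it had 108, 95.5 and 96.9 CPM and with sgWDR77-2 95.3, 103 and 104 CPM, which overlapped with sgNeg. SERPINB6 was significantly downregulated in PRMT5KO by a small amount, with a log2 fold change of -0.26 (SE 0.0751, limma voom, Benjamini-Hochberg adjusted p = 0.0293). This call was lost when any of 6 libraries was left out, with an adjusted p of 0.112, 0.0536 and 0.0611 without sgNeg replicates 1, 2 and 3, and of 0.0654, 0.0538 and 0.0578 without sgPRMT5-2 replicates 1, 2 and 3, within a range of 0.0128 to 0.112. With sgPRMT5-2 alone the log2 fold change was -0.31 (SE 0.0783, limma voom, Benjamini-Hochberg adjusted p = 0.00319) and held whichever library was left out. In WDR77KO it was -0.12, which did not pass (limma voom, Benjamini-Hochberg adjusted p = 0.589).

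SERPINB8, which can inhibit furin, a protease that processes precursor proteins, was a low-abundance member with 465 counts over the 15 libraries. It had 3.89, 2.79 and 2.54 CPM in sgNeg, 3.67, 4.92 and 4.79 CPM with sgPRMT5-1 and 9.17, 6.97 and 9.64 CPM with sgPRMT5-2. The sgPRMT5-2 libraries were the highest of all, and 1 sgPRMT5-1 library overlapped with sgNeg. The sgWDR77-1 libraries had 4.43, 5.74 and 4.38 CPM and the sgWDR77-2 libraries 6.55, 4.06 and 6.66 CPM, all 6 above sgNeg. SERPINB8 was significantly upregulated with sgPRMT5-2 with a log2 fold change of 1.46 (SE 0.271, limma voom, Benjamini-Hochberg adjusted p = 0.000246) in 3 of 3 libraries. The pooled PRMT5KO log2 fold change of 0.98 (SE 0.369) did not pass (limma voom, Benjamini-Hochberg adjusted p = 0.0794), but did without sgPRMT5-1 replicate 1 (0.0212), with all libraries in one fit (0.00881) and with limma-trend (0.0396), within a range of 0.00881 to 0.218. In WDR77KO the log2 fold change was 0.76 (SE 0.280, limma voom, Benjamini-Hochberg adjusted p = 0.172) with 6 of 6 libraries above sgNeg, and it did not pass whichever library was left out (0.115 to 0.488). The 250 bases before its start are shown because SERPINB8 and SERPINB7 were the members upregulated most (RefSeq, GRCh38.p14, chr18:63969831-63970080, plus strand), with AP-1, TATA box and CCAAT box matches in capitals.
SERPINB8: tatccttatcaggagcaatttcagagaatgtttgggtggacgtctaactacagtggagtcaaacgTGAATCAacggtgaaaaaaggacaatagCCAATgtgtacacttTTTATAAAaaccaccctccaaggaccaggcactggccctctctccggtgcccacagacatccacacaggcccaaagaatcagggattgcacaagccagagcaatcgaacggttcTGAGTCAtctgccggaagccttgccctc

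SERPINB13, an inhibitor of the cysteine proteases cathepsin L and cathepsin K, had lower values than sgNeg in all 4 knockout conditions. It had 25.9, 34.3 and 29.0 CPM in sgNeg, 23.4, 21.2 and 12.5 CPM with sgPRMT5-1, and 3.89, 4.76 and 4.23 CPM with sgPRMT5-2. The sgPRMT5-2 mean was 14.4% of the sgNeg mean and the sgPRMT5-1 mean 63.95%. With sgWDR77-1 it had 16.6, 17.0 and 11.7 CPM and with sgWDR77-2 11.6, 15.7 and 22.5 CPM, or 50.8% and 55.8% of the sgNeg mean. No library of the 4 knockout conditions reached the lowest sgNeg library, and the 3 sgPRMT5-2 libraries were below all others. Its 250 bases before the start are shown for that reason (RefSeq, GRCh38.p14, chr18:63587093-63587342, plus strand), with the AP-1 match in capitals.
SERPINB13: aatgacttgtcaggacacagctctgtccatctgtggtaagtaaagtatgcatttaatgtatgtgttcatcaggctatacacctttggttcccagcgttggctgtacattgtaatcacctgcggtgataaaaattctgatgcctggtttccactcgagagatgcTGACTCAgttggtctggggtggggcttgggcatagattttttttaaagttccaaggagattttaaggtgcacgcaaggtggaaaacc

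SERPINB13 was significantly downregulated in PRMT5KO with a log2 fold change of -1.73 (SE 0.409, limma voom, Benjamini-Hochberg adjusted p = 0.0146) in 6 of 6 libraries, but not without sgNeg replicate 1 (adjusted p = 0.0529) or sgNeg replicate 2 (0.0697), within a range of 5.49e-06 to 0.0697. In WDR77KO it was significantly downregulated with -0.93 (SE 0.180, limma voom, Benjamini-Hochberg adjusted p = 0.00823) in 6 of 6 libraries, but not without sgNeg replicate 2 (0.0665), within a range of 0.00198 to 0.0665. By sgRNA it was called with all 4. The log2 fold change with sgPRMT5-2 was -2.78 (SE 0.217, limma voom, Benjamini-Hochberg adjusted p = 6.87e-09), and no omission changed that call. With sgPRMT5-1 it was -0.69 (SE 0.186, limma voom, Benjamini-Hochberg adjusted p = 0.0461). That call was lost in 5 of 6 omissions, with adjusted p of 0.0670, 0.159 and 0.0588 without sgNeg replicates 1, 2 and 3 and of 0.0862 and 0.168 without sgPRMT5-1 replicates 2 and 3, the last with a log2 fold change of -0.43, and with all libraries in one fit (0.0807), within a range of 0.00322 to 0.168. With sgWDR77-1 it was -0.96 (SE 0.192, limma voom, Benjamini-Hochberg adjusted p = 0.0215), and this was lost without sgNeg replicates 2 (0.0957) or 3 (0.114) or sgWDR77-1 replicates 2 (0.0515) or 3 (0.0504), within a range of 0.00391 to 0.114. With sgWDR77-2 it was -0.88 (SE 0.198, limma voom, Benjamini-Hochberg adjusted p = 0.0179), and this was lost without sgNeg replicate 2 (0.0755) or sgWDR77-2 replicate 2 (0.0841), within a range of 0.00489 to 0.0841.

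SERPINB3 and SERPINB4, the squamous cell carcinoma antigens, inhibit cysteine cathepsins and chymotrypsin-like serine proteases, respectively. They are near copies, with 95.2% identical coding bases, 56 differences in 1170 bases and up to 129 bases in a row without a difference. Of the windows within single exons that are as long as a read (76 bases), 9.72% occur more than once in the genome sequence. Reads that fall there cannot be placed uniquely. The coding stretch of that length with the most differences is shown as an example of where reads separate them (GENCODE v44 on GRCh38, coding bases 948 to 1023, minus strand, chr18:63655807-63655882 for SERPINB3 and chr18:63637869-63637944 for SERPINB4), with the 12 differences in capitals.
SERPINB3: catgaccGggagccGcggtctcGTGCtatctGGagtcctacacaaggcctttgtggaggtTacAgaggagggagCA
SERPINB4: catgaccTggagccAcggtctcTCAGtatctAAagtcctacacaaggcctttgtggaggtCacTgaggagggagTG

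Both were near the detection limit. SERPINB3 had 53 counts over the 15 libraries and 0 in 3 of them, with 15, 2 and 4 counts in sgNeg, 2, 0 and 2 with sgPRMT5-1, 0, 0 and 1 with sgPRMT5-2, 4, 1 and 6 with sgWDR77-1 and 1, 7 and 8 with sgWDR77-2. SERPINB4 had 131 counts, with 18, 13 and 10 in sgNeg, 8, 7 and 4 with sgPRMT5-1, 5, 2 and 4 with sgPRMT5-2, 15, 13 and 15 with sgWDR77-1 and 3, 6 and 8 with sgWDR77-2. Most of the sgNeg counts of SERPINB3 thus came from replicate 1. As CPM, SERPINB4 was lower in all 6 PRMT5KO libraries and the 3 sgWDR77-2 libraries than in sgNeg, while sgWDR77-1 overlapped with sgNeg. SERPINB4 was significantly downregulated in PRMT5KO with a log2 fold change of -1.502 (SE 0.375, limma voom, Benjamini-Hochberg adjusted p = 0.0181), but not without sgNeg replicate 1 (0.0911) or 2 (0.0562), within a range of 0.00474 to 0.0911. With sgPRMT5-2 it was -1.86 (SE 0.511, limma voom, Benjamini-Hochberg adjusted p = 0.00653), held whichever library was left out. With sgWDR77-2 it was -1.16 and did not pass (limma voom, Benjamini-Hochberg adjusted p = 0.168). SERPINB3 was significantly downregulated with sgPRMT5-2, with 1 count against 21 in sgNeg, a ratio of 0.0457 after scaling with a 95% counting interval of 0.00111 to 0.284 (limma voom, Benjamini-Hochberg adjusted p = 0.0108), and not without sgPRMT5-2 replicate 1 (0.0550, within a range of 0.000518 to 0.0550). The counting interval pools the libraries of a group and leaves out the spread between them, so it is too narrow where libraries differ as in sgNeg. Without sgNeg replicate 1, which holds 15 of the 21 counts, SERPINB3 fell under the minimum and was not tested.

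SERPINB5, also called maspin, is a clade B member that does not inhibit proteases and is known as a tumor suppressor of epithelia. It had 59.1, 50.5 and 52.1 CPM in sgNeg, 65.2, 64.3 and 62.5 CPM with sgPRMT5-1 and 69.0, 60.004 and 68.7 CPM with sgPRMT5-2. All 6 PRMT5KO libraries were above sgNeg. With sgWDR77-1 it had 48.8, 46.5 and 43.8 CPM, all below sgNeg, and with sgWDR77-2 60.8, 60.6 and 62.5 CPM, all above. In PRMT5KO the log2 fold change was 0.26 (SE 0.0848), at the edge of the threshold (limma voom, Benjamini-Hochberg adjusted p = 0.0501), and it passed without sgPRMT5-1 replicate 1 (0.0473), with a minimum mean of 10 counts (0.0450), with all libraries in one fit (0.0267) and with limma-trend (0.0465), within a range of 0.0267 to 0.191. SERPINB5 was significantly upregulated with sgPRMT5-2 with 0.29 (SE 0.0934, limma voom, Benjamini-Hochberg adjusted p = 0.0197), but not without sgNeg replicate 2 (0.0522) or 3 (0.0512) or sgPRMT5-2 replicate 1 (0.0530) or 3 (0.0538), and not when scaled by library totals alone (0.0767), within a range of 0.00797 to 0.0767. In WDR77KO the log2 fold change was -0.01 (limma voom, Benjamini-Hochberg adjusted p = 0.984).

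SERPINB7 is a protease inhibitor of the upper epidermis whose loss causes a palmoplantar keratosis. It had 3.72, 3.78 and 4.35 CPM in sgNeg, 3.36, 6.96 and 7.36 CPM with sgPRMT5-1 and 9.48, 11.2 and 10.7 CPM with sgPRMT5-2. The sgPRMT5-1 libraries split, 1 below sgNeg and 2 above, while the 3 sgPRMT5-2 libraries were above all others. The WDR77KO libraries lay between 4.24 and 4.95 CPM and overlapped with sgNeg. SERPINB7 was significantly upregulated with sgPRMT5-2 with a log2 fold change of 1.38 (SE 0.227, limma voom, Benjamini-Hochberg adjusted p = 7.47e-05), held whichever library was left out. In PRMT5KO the log2 fold change was 0.91 (SE 0.387) and did not pass (limma voom, Benjamini-Hochberg adjusted p = 0.116), but did without sgPRMT5-1 replicate 1 (0.00519) and with all libraries in one fit (0.00857), within a range of 0.00519 to 0.276. Its 250 bases before the start are shown beside those of SERPINB8 (RefSeq, GRCh38.p14, chr18:63775168-63775417, plus strand), with AP-1 matches in capitals.
SERPINB7: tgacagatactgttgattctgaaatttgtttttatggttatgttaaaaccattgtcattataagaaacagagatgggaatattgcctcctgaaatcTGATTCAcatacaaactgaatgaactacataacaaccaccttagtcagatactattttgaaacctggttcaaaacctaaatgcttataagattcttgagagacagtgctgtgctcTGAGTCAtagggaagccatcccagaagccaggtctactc

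SERPINB2, or plasminogen activator inhibitor 2, was almost absent, with 10 counts over all libraries and 0 counts in 10 of 15. The highest library was sgPRMT5-2 replicate 2 with 4 counts, followed by sgNeg replicate 3 with 3 counts. It did not reach the minimum mean count in any comparison and was not tested.

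With each sgRNA set against sgNeg, the members called were 1 of 8 tested for sgPRMT5-1, where 3.76% of all genes were called, and 8 of 8 for sgPRMT5-2, where 40.1% were called and all 8 had libraries apart from sgNeg. The 8 with sgPRMT5-2 were 3 upregulated, where 20.9% of all genes were, and 5 downregulated, where 19.3% were. For sgWDR77-1 the members called were 2 of 8, against 2.71% of all genes, and for sgWDR77-2 2 of 8, against 4.97%. SERPINB2 was the member not tested each time, and the tool was limma voom with Benjamini-Hochberg adjustment. The median log2 fold change of the tested members was -0.29, -0.74, -0.14 and -0.15 in the same order, beside medians of 0.00, 0.00, 0.02 and 0.01 over all genes. Leaving out a library gave 0 members for sgPRMT5-1 without sgNeg replicate 1 or 2 or sgPRMT5-1 replicate 2 or 3, and 2 without sgPRMT5-1 replicate 1. For sgPRMT5-2 it gave 6 without its replicate 1, 8 without its replicate 2 and 7 without its replicate 3 or any 1 sgNeg library. For sgWDR77-1 it gave 0 without sgNeg replicate 2 or sgWDR77-1 replicate 2, and 1 without sgNeg replicate 1 or 3 or sgWDR77-1 replicate 3. For sgWDR77-2 it gave 1 without sgNeg replicate 2 or sgWDR77-2 replicate 2. The 4 comparisons share the sgNeg libraries.

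**Figure D3:**
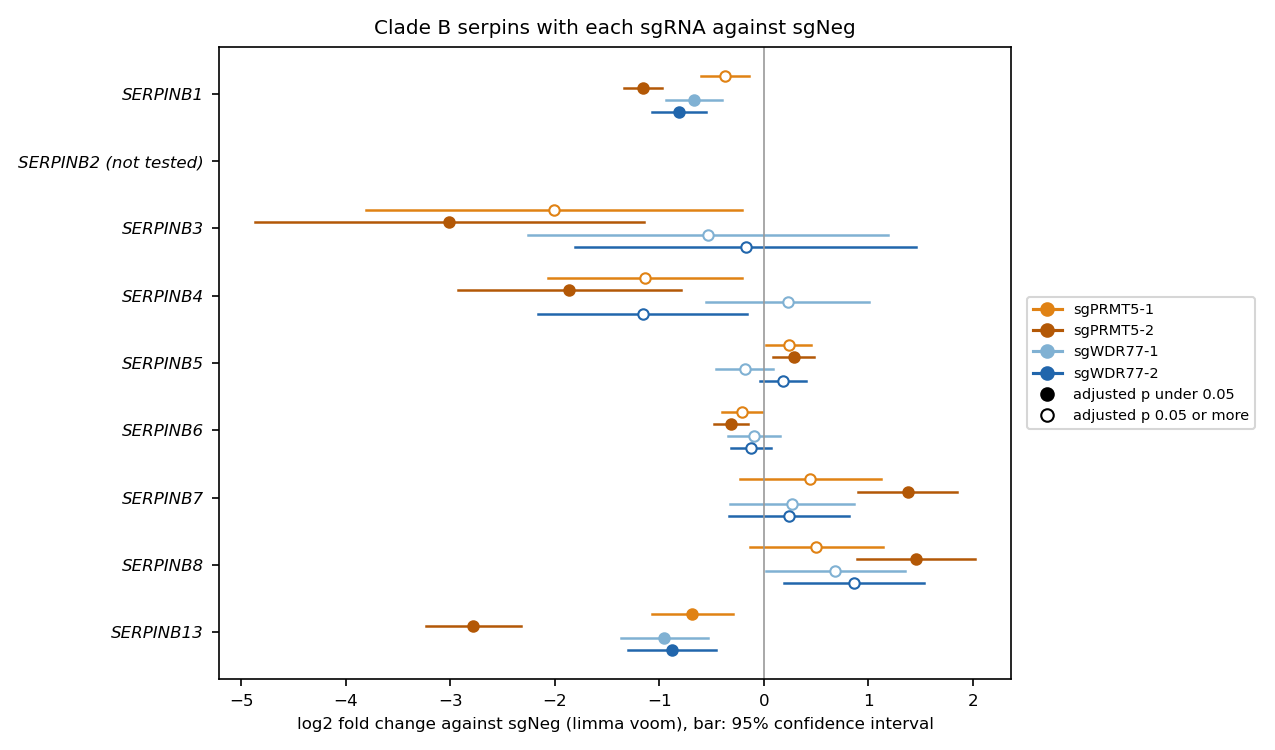
Log2 fold change of each member with each sgRNA against sgNeg (points) and its 95% confidence interval (lines), from limma voom; filled points have a Benjamini-Hochberg adjusted p under 0.05. All 8 tested members are filled for sgPRMT5-2, and SERPINB13 is filled for all 4 sgRNAs.

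The sgRNAs of each gene were compared with each other. For sgPRMT5-2 against sgPRMT5-1, 4 of 7 tested members were called, beside 19.2% of all genes, and SERPINB2 and SERPINB3 were not tested. SERPINB1 was lower with sgPRMT5-2 by a log2 fold change of -0.79 (SE 0.0944, limma voom, Benjamini-Hochberg adjusted p = 5.33e-06) and SERPINB13 by -2.09 (SE 0.271, limma voom, Benjamini-Hochberg adjusted p = 1.49e-05), each in 3 of 3 libraries. SERPINB7 was higher by 0.93 (SE 0.245, limma voom, Benjamini-Hochberg adjusted p = 0.0112) and SERPINB8 by 0.95 (SE 0.233, limma voom, Benjamini-Hochberg adjusted p = 0.00688), also in 3 of 3 libraries. Without sgPRMT5-1 replicate 1 the SERPINB7 difference was 0.53 (0.123, within a range of 0.000517 to 0.123) and that of SERPINB8 was 0.80 (0.0553, within a range of 0.00240 to 0.0553), and neither passed. PRMT5 mRNA itself differed between these sgRNAs by 0.23, which did not pass (limma voom, Benjamini-Hochberg adjusted p = 0.146). For SERPINB4, SERPINB5 and SERPINB6 the differences were -0.73, 0.04 and -0.11 and did not pass, and this does not show that they were the same with both sgRNAs.

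For sgWDR77-2 against sgWDR77-1, limma voom with Benjamini-Hochberg adjustment called 0 of 8 tested members, beside 0.121% of all genes, and 2 members had an unadjusted p under 0.05. These were SERPINB4 with a log2 fold change of -1.37 and SERPINB5 with 0.39, in 3 of 3 libraries each (adjusted p = 0.274 and 0.266). SERPINB5 passed with all libraries in one fit (0.0408, within a range of 0.0408 to 0.729). SERPINB5 thus lay on opposite sides of sgNeg with the sgRNAs of WDR77, but the reported difference did not pass the test over all genes.

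PRMT5KO was also compared directly with WDR77KO. Limma voom with Benjamini-Hochberg adjustment called 0 of 7 tested members, beside 14% of all genes, and 4 had an unadjusted p under 0.05, namely SERPINB4, SERPINB5, SERPINB7 and SERPINB13. SERPINB1 had a mean of 166 ± 54.2 CPM in PRMT5KO and 160 ± 18.2 CPM in WDR77KO (SD, n = 6), with a log2 fold change of 0.00 and a 95% confidence interval of -0.34 to 0.34. SERPINB13 had 11.7 ± 8.86 CPM in PRMT5KO and 15.9 ± 4.05 CPM in WDR77KO (SD, n = 6), a log2 fold change of -0.79 (SE 0.371, limma voom, Benjamini-Hochberg adjusted p = 0.152). Without sgPRMT5-1 replicate 1, SERPINB7 (0.92, adjusted p = 0.00360, within a range of 0.00360 to 0.194) and SERPINB13 (-1.10, 0.0339, within 0.00610 to 0.350) were called. Without sgWDR77-2 replicate 1, SERPINB4 (-1.28, 0.0237, within 0.0237 to 0.229) and SERPINB5 (0.31, 0.0354, within 0.00505 to 0.172) were called. With all libraries in one fit 5 members were called, SERPINB3 (0.0220), SERPINB4 (0.0304), SERPINB5 (0.00505), SERPINB7 (0.00910) and SERPINB13 (0.00610), and with no filter SERPINB3 was called (0.0293). With the reads of SERPINB3 and SERPINB4 summed, their difference was -1.38 and passed (limma voom, Benjamini-Hochberg adjusted p = 0.0348).

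The levels of the 9 members were also summed, as a description without a test. The sum was 473 ± 38.6 CPM in sgNeg, 400.5 ± 39.9 CPM with sgPRMT5-1, 299 ± 10.8 CPM with sgPRMT5-2, 340 ± 13.4 CPM with sgWDR77-1 and 345 ± 37.0 CPM with sgWDR77-2 (SD, n = 3). SERPINB1 made up between 53.7% and 58.5% of the sum in sgNeg and between 38.8% and 41.8% with sgPRMT5-2. Without SERPINB1 the sums were closer to each other, at 203 ± 9.08, 190 ± 4.64, 178 ± 6.29, 174 ± 10.5 and 191 ± 11.9 CPM in the same order.

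**Figure D4:**
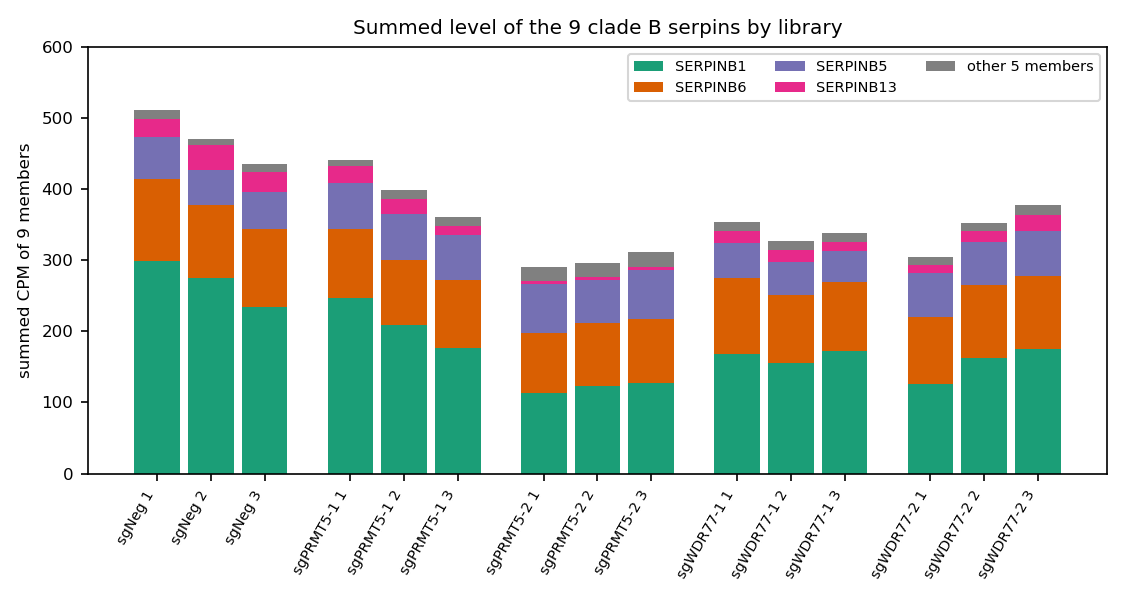
Summed CPM of the 9 members in each of the 15 libraries, split by member. The sgNeg libraries reach between 435 and 512 CPM while those with sgPRMT5-2 reach 291 to 311 CPM, with SERPINB1 the part that differs most in height.

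The promoters were searched for named motifs in the 250 bases before the start, on both strands, over 35116 RefSeq promoters (GRCh38.p14), where all 9 members had an entry. The AP-1 motif TGANTCA matched 2 times in SERPINB7 and SERPINB8 and 1 time in SERPINB2, SERPINB5 and SERPINB13, and 6.57% of all promoters hold it. The GC box GGGCGG matched 2 times in SERPINB1 and SERPINB5 and 3 times in SERPINB6 (42.6% of all promoters). The matches in SERPINB1 share a base, as do those in SERPINB5. The TATA box TATAAA matched 1 time in SERPINB2 and 2 times in SERPINB8, where the matches on opposite strands overlap (10.7% of all promoters), and CCAAT matched 1 time in SERPINB8 (32% of all promoters). A p53-family half-site matched in none of the 9 (5.57% of all promoters). SERPINB3 and SERPINB4, whose windows are 98.8% identical to each other, held none of these motifs. A match is a description of the letters and not a binding site. The AP-1 matches occur both in members called higher (SERPINB5, SERPINB7, SERPINB8) and in SERPINB13, called lower with sgPRMT5-2.

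**Figure D5:**
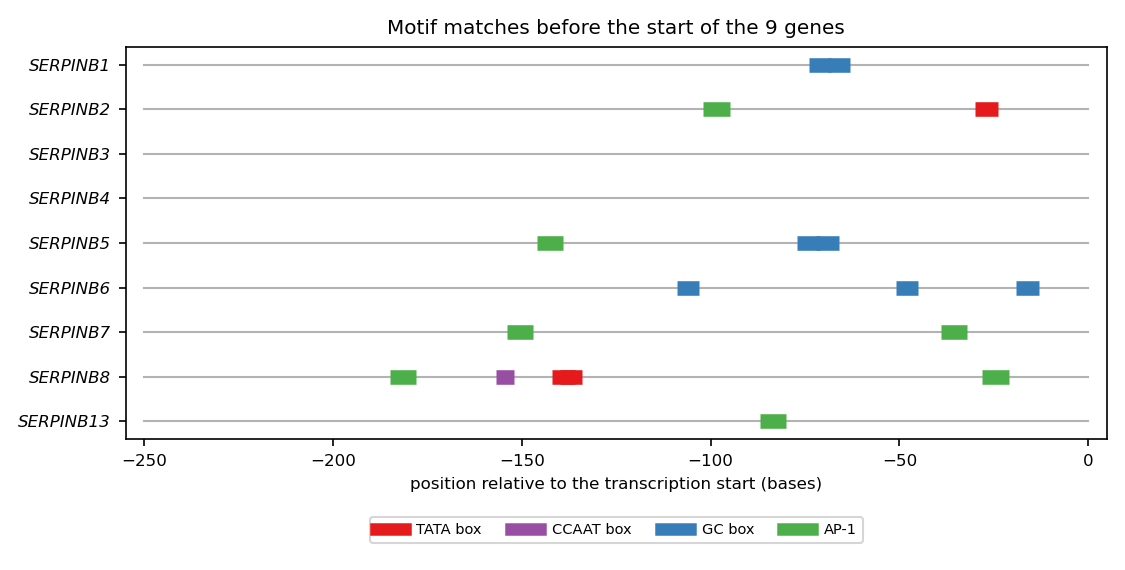
Motif matches (colored blocks) in the 250 bases before the transcription start of the 9 members, by distance from the start in bases. SERPINB7 and SERPINB8 hold 2 AP-1 matches each, SERPINB1, SERPINB5 and SERPINB6 hold GC boxes, and SERPINB3 and SERPINB4 hold none of the motifs drawn.

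Of the 6 other clade B genes listed, SERPINB11 and SERPINB8P1 had 0 counts in all 15 libraries, and SERPINB10 and SERPINB12 had 4 and 2 counts. SERPINB9, the inhibitor of granzyme B, lies between SERPINB1 and SERPINB6 on chromosome 6 (ENSG00000170542.6, chr6:2887270-2903309). It had 16.4, 11.01 and 11.4 CPM in sgNeg, 24.6, 23.9 and 34.7 CPM with sgWDR77-1 and 17.9, 27.4 and 26.1 CPM with sgWDR77-2, while the 6 PRMT5KO libraries lay between 12.9 and 16.7 CPM. All WDR77KO libraries were above sgNeg, and the PRMT5KO libraries overlapped with sgNeg. SERPINB9 was significantly upregulated in WDR77KO with a log2 fold change of 0.99 (SE 0.208, limma voom, Benjamini-Hochberg adjusted p = 0.0141), but not without sgNeg replicate 2 (0.0974) or 3 (0.102), within a range of 0.000752 to 0.102. In PRMT5KO it was 0.18 (limma voom, Benjamini-Hochberg adjusted p = 0.435), and PRMT5KO was lower than WDR77KO by -0.79 (SE 0.139, limma voom, Benjamini-Hochberg adjusted p = 0.00212) in 6 of 6 libraries, held whichever library was left out. By sgRNA it was 1.12 with sgWDR77-1 (limma voom, Benjamini-Hochberg adjusted p = 0.0156), lost without sgNeg replicate 2 (0.0992) or 3 (0.127), within a range of 0.000894 to 0.127, and 0.87 with sgWDR77-2 (0.0213), lost without sgNeg replicates 2 (0.0942) or 3 (0.0827) or sgWDR77-2 replicates 2 (0.0859) or 3 (0.0583). The pseudogene SERPINB9P1, with 47 counts, was significantly downregulated with sgPRMT5-2 with a log2 fold change of -2.14 (limma voom, Benjamini-Hochberg adjusted p = 0.0245), but not without sgPRMT5-2 replicate 1 (0.0796), 2 (0.0704) or 3 (0.0687), within a range of 0.0130 to 0.0796, nor without sgNeg replicate 2, where it was not tested, and -1.31 in PRMT5KO did not pass (0.115).

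Proteases that clade B serpins are known to act on, or that share their tissue, were taken as a list of 25 genes, of which 3 were at 0 in all libraries and 17 were tested. In PRMT5KO 1 was significantly upregulated and 6 were significantly downregulated (limma voom, Benjamini-Hochberg), beside 8.73% and 8.3% of all genes tested. The median log2 fold change was -0.12, beside -0.01 over all genes tested. The lower 6 were CTSH and CTSB, cysteine cathepsins, PLAT, the tissue plasminogen activator, and the epidermal kallikreins KLK7, KLK8 and KLK10. KLK7 and KLK8 were at low levels, with means of 3.99 and 2.50 CPM in sgNeg. The more abundant kallikreins of the list, KLK5 (122 CPM in sgNeg) and KLK6 (364 CPM), had log2 fold changes of -0.11 and -0.12. Neither passed (limma voom, Benjamini-Hochberg adjusted p = 0.401 and 0.330). CTSH went from 155 CPM in sgNeg to 89.6 CPM in PRMT5KO with a log2 fold change of -0.83 (limma voom, Benjamini-Hochberg adjusted p = 0.00562), KLK7 had -1.67 (0.00603) and KLK10 had -0.72 (0.00831), each in 6 of 6 libraries. PLAU, the urokinase that SERPINB2 inhibits, had a mean of 335 CPM in sgNeg and 567 CPM in PRMT5KO, a log2 fold change of 0.73 (limma voom, Benjamini-Hochberg adjusted p = 0.00945) in 6 of 6 libraries. KLK8 (-2.43), PLAT (-0.61), CTSB (-0.42) and PLAU were named after their values were seen. In PRMT5KO these calls were lost without sgNeg replicate 1 for KLK8 (0.0726), PLAT (0.0803) and CTSB (0.0867), and without sgNeg replicate 2 for KLK10 (0.0518), PLAU (0.0657) and PLAT (0.0657), giving 4 called genes in each case. With other single libraries left out the adjusted p of these 5 went as low as 0.00459 (KLK8), 0.00459 (PLAT), 0.00685 (CTSB), 0.00106 (KLK10) and 0.00274 (PLAU).

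In WDR77KO none of these 17 was significantly upregulated and 3 were significantly downregulated, beside 0.838% and 2.55% of all genes tested. The median log2 fold change was -0.04, beside 0.00 over all genes tested. CTSH had 85.2 CPM in WDR77KO, a log2 fold change of -0.86 (limma voom, Benjamini-Hochberg adjusted p = 0.000139), PLAT had -0.73 (0.00344) and KLK7 had -1.46 (0.0197), each in 6 of 6 libraries. The KLK7 call was lost without sgNeg replicate 2 (0.111) or 3 (0.0907), within a range of 0.00325 to 0.111, and the count was 5 without sgWDR77-1 replicate 1.

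Other protease inhibitors of squamous epithelium were a list of 25 genes, of which 4 were at 0 everywhere. In PRMT5KO 1 of 16 tested was significantly upregulated and 4 were significantly downregulated, beside 8.73% and 8.3% of all genes tested. The list median log2 fold change was 0.10, beside -0.01 over all genes tested. SLPI, the secretory leukocyte protease inhibitor, had -1.69 (limma voom, Benjamini-Hochberg adjusted p = 0.00388) and TIMP2, a metalloproteinase inhibitor, had -0.83 (0.00463), in 6 of 6 libraries each. TIMP3 (-1.25) and WFDC2 (-1.23), named after their values were seen, made up the other lower genes. Their calls were lost without sgNeg replicate 1 (TIMP3 0.0651, WFDC2 0.0767) or 2 (0.0569 and 0.0575), which left 2 of the 4, and TIMP3 also without sgNeg replicate 3 (0.0917) or sgPRMT5-2 replicate 1 (0.0551), within ranges of 0.0112 to 0.0917 (TIMP3) and 0.000504 to 0.0767 (WFDC2). The TIMP3 call was lost under 1 further setting, given with the processing results. In WDR77KO 1 of 17 tested was significantly downregulated, beside 2.55% of all genes tested. It was WFDC2 with -2.19 (limma voom, Benjamini-Hochberg adjusted p = 0.000351) in 6 of 6 libraries. The list median was -0.06, and the count was 2 without sgWDR77-1 replicate 3.

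Neighbouring genes within 500 kb of the 2 clusters were a list of 14, of which 11 were tested. In PRMT5KO 1 was significantly upregulated and 2 were significantly downregulated, beside 8.73% and 8.3% of all genes tested, with a median log2 fold change of 0.07. In WDR77KO limma voom with Benjamini-Hochberg adjustment called 0 of 11, beside 3.39% of all genes tested. There 2 had an unadjusted p under 0.05, and the median was 0.05. The 3 genes called in PRMT5KO were SLC22A23 (-0.44, limma voom, Benjamini-Hochberg adjusted p = 0.0203) and BPHL (-0.74, 0.0303), each in 6 of 6 libraries, and TUBB2A (0.74, 0.0412), whose libraries overlapped with sgNeg. These lie near the chromosome 6 cluster. Their number was 0 without sgNeg replicate 1 or 2, 1 without sgNeg replicate 3 or sgPRMT5-2 replicate 1 or 3, and 5 without sgPRMT5-1 replicate 1 or 2. SLC22A23 was lost without sgNeg replicate 1 (0.0609) or 2 (0.0988). BPHL was lost without each sgNeg library (0.0892, 0.0910 and 0.0766 without replicates 1, 2 and 3) and without sgPRMT5-2 replicate 1 (0.0603) or 3 (0.0565). TUBB2A was lost without sgNeg replicates 1, 2 and 3 (0.147, 0.186 and 0.0565) or sgPRMT5-2 replicates 1, 2 and 3 (0.0753, 0.0791 and 0.0734), and also with library totals alone (0.0547), no filter (0.0645) and 1 further setting given with the processing results. The lowest adjusted p with a library left out was 0.00566 for SLC22A23, 0.0110 for BPHL and 0.0253 for TUBB2A.

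The genes most like each member across the 15 libraries were found by Pearson correlation of log2 CPM over 8955 genes at a mean of at least 10 CPM, as a description. All 15 points share the conditions and the sgNeg libraries, so any gene that differs between conditions in the same order has a high value. For SERPINB1 they were MRC2, STN1 and CD109 (r = 0.94 each), and for SERPINB13 HEG1 (0.97), EDIL3 (0.96) and ADGRL2 (0.96). For SERPINB6 they were CLU (0.93), PCDH7 (0.93) and KRT15 (0.92), and for SERPINB5 HNRNPL (0.92), MEA1 (0.91) and PCMT1 (0.90). The other 5 members were under the minimum level.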

How the data were processed

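The deposited values are raw counts per gene, made by the authors from 76 nt single-end reads with STAR 2.7.11b and htseq-count 2.0.3 on hg38. Counts were scaled by the trimmed mean of M values (0.3 of log ratios and 0.05 of mean levels trimmed), written out in code, and compared by limma voom (limma 3.58.1, R 4.3.3) over all genes with a mean of at least 3 normalized counts in the libraries compared. Pooled comparisons set 6 knockout libraries against 3 sgNeg libraries or against the other 6. P-values were adjusted by Benjamini-Hochberg over all genes tested, with a threshold of 0.05. DESeq2 and edgeR were not used. The members and gene lists were chosen with earlier results of these data known. Genes named were the members, PRMT5, WDR77, other SERPINB genes that passed the filter, the 3 genes of each list with the smallest adjusted p among those past the threshold in PRMT5KO and in WDR77KO, the most abundant marker of each cell type, and the 3 genes most correlated with each member at a mean of at least 10 CPM. The lists were target proteases, other protease inhibitors, neighbours within 500 kb and markers of 5 cell types. Gene models came from GENCODE v44, of which 60463 of 60605 gene IDs matched, and promoters from RefSeq. Tables and figures were made with Python 3.11.15, numpy 2.4.6, pandas 2.3.3, Biopython 1.88 and matplotlib 3.10.9.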

Additional observations from a re-analysis of the deposited data

Results flagged for a closer look

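In groups of 6 libraries, the gap of the highest or lowest library to its neighbour over the range of the group was compared with Dixon's 95% critical value for 6 libraries, in 18 groups. Chance marks about 1 in 20 groups. SERPINB2 passed it in PRMT5KO (0.751) and in WDR77KO (1), at counts of 0 to 4.

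Differences between groups that passed limma voom with Benjamini-Hochberg adjustment were SERPINB9 in PRMT5KO against WDR77KO, at a log2 fold change of -0.7942 in 6 of 6 libraries. For sgPRMT5-2 against sgPRMT5-1 they were SERPINB1 at -0.7891, SERPINB7 at 0.9264, SERPINB8 at 0.9514 and SERPINB13 at -2.094, in 3 of 3 libraries each. Without sgPRMT5-1 replicate 1 SERPINB7 (adjusted p = 0.123, range 0.000517 to 0.123) and SERPINB8 (0.0553, range 0.00240 to 0.0553) did not pass.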

How the results depend on the processing

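Of the 23 called member values, 159 of 161 recomputed with other settings kept direction and side of the threshold, and 2 no longer passed. With each library left out, 121 of 155 did so, 34 no longer passed, and none changed direction. Of 46 values not called, 16 of 326 passed with other settings and 9 of 344 with a library left out. Of 21 called list genes and targets, 4 values no longer passed with other settings and 27 with a library left out. Leaving out 1 library leaves 2 in a group, and depth limits SERPINB2, SERPINB3 and SERPINB4.

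With all libraries in one fit, the members called were 8 in PRMT5KO, 0 with sgPRMT5-1, 1 between the WDR77 sgRNAs and 5 between PRMT5KO and WDR77KO, and the genes called were 1187 in WDR77KO, 1333 with sgWDR77-1, 1059 between the PRMT5 sgRNAs, 339 between the WDR77 sgRNAs and 3813 between PRMT5KO and WDR77KO. Called list genes in that fit were 5 neighbours in PRMT5KO, and 5 proteases, 3 inhibitors and 1 neighbour in WDR77KO. With no filter, 2 members and 987 genes were called with sgPRMT5-1, 127 genes between the WDR77 sgRNAs and 1 member between PRMT5KO and WDR77KO. With library totals alone, 2 members were called with sgPRMT5-1 and 11 genes between the WDR77 sgRNAs. The cause was not tested.

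With library totals alone the calls split as 781 higher and 1517 lower in PRMT5KO (1229 and 1168 as reported), 146 and 380 with sgPRMT5-1 (214 and 316), 2292 and 3517 with sgPRMT5-2 (2960 and 2733), and 716 and 1185 in PRMT5KO against WDR77KO (1120 and 842).

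With a replicate block, 3 members and 1529 genes were called with sgPRMT5-1 and 380 genes with sgWDR77-2, where SERPINB9 had an adjusted p of 0.0551 (range 0.00123 to 0.0942). With it SERPINB1 (0.000694, range 0.000694 to 0.237) and SERPINB3 (0.0157, range 0.0157 to 0.506) passed with sgPRMT5-1, and TIMP3 (0.0583, range 0.0112 to 0.0917) and TUBB2A (0.0603, range 0.00966 to 0.186) did not pass in PRMT5KO. Libraries of different conditions with the same replicate number had correlations of -0.332 to 0.272 (median -0.00565, 30 pairs), and others -0.261 to 0.456 (median 0.00200, 60 pairs). The medians over all conditions thus show no pairing by replicate number. They cannot decide whether given conditions are paired.

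With each library left out, the genes called ranged from 483 to 3562 in PRMT5KO, 199 to 677 in WDR77KO, 211 to 510 with sgPRMT5-1, 4675 to 5668 with sgPRMT5-2, 56 to 1003 with sgWDR77-1, 293 to 661 with sgWDR77-2, 1429 to 4711 between the PRMT5 sgRNAs, 0 to 156 between the WDR77 sgRNAs and 876 to 3178 between PRMT5KO and WDR77KO. The members called in these ranged from 0 to 8, 1 to 2, 0 to 2, 6 to 8, 0 to 2, 1 to 2, 2 to 4 and, between the knockouts, 0 to 2, with 0 throughout between the WDR77 sgRNAs. With sgPRMT5-2 a minimum mean of 10 gave 6 of 6 tested and library totals alone 7 of 8. Counts of squamous markers under these settings were chosen after seeing the data: 4 to 5 in PRMT5KO and 3 to 4 in WDR77KO.

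Direction changed only for values that were not called. With SERPINB3 and SERPINB4 summed, SERPINB3 had 0.0219 with sgWDR77-1 and -0.87 between the WDR77 sgRNAs, where SERPINB6 (0.0091) and SERPINB7 (0.00635) changed in one fit. SERPINB1 between the knockouts was -0.0234 with RLE scaling and -0.0625 with library totals. With each library left out, the ranges were -0.98 to 0.38 for SERPINB3 and -0.0559 to 0.0579 for SERPINB5 in WDR77KO, -1.17 to 0.20 for SERPINB3 with sgWDR77-1 and -0.80 to 0.58 with sgWDR77-2, and -0.14 to 0.0813 for SERPINB1 between the knockouts. Between the WDR77 sgRNAs they were -0.21 to 0.0158 (SERPINB1), -0.22 to 1.12 (SERPINB3), -0.0230 to 0.0412 (SERPINB6), -0.0384 to 0.0590 (SERPINB7) and -0.14 to 0.32 (SERPINB13).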
